A study of Homo sapiens with 12 samples.

Results

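The genes described here write and erase methyl groups on DNA: DNMT1, DNMT3A, DNMT3B, UHRF1, UHRF2, TET1, TET2, TET3, TDG and HELLS. They were chosen by name, as the rows of the deposited table that carry 1 of these 10 symbols, summed per symbol. All 10 were among the 46639 symbols of the table, and 9 of them passed the filter on low values together with 10642 genes in all. DNMT3B did not pass and is given by its reads only.

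DNA methylation is kept through cell division by DNMT1, which copies the mark onto the new strand after UHRF1 has recognised the hemimethylated site, while the chromatin remodeller HELLS opens packed chromatin for it. DNMT3A and DNMT3B set new marks. The TET enzymes oxidise 5-methylcytosine and TDG cuts out the oxidised base, so that an unmodified cytosine can be put back. In acute myeloid leukemia (AML) DNMT3A and TET2 are among the genes most often mutated, and TET1 is known as a target of KMT2A fusion proteins.

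RNA was measured by strand-specific RNA-seq of MOLM-13, an AML cell line with an MLL-AF9 (KMT2A) fusion per the study. The cells were grown with serum and GM-CSF, whereas the study's methods name serum for its cell lines but no GM-CSF. Of 12 libraries, 3 were untreated, 3 had received 100 nM decitabine (DAC), 3 had received 1 µM all-trans retinoic acid (ATRA) and 3 had received both (DAC+ATRA). DAC is built into DNA and traps the DNMT proteins there, and ATRA is the ligand of the retinoic acid receptors. The time on the labels is 96 h for untreated cells but 72 h in every treated group, whereas the design text has all cells harvested at 72 h, and which of these holds is not settled by the files. ATRA was present for less time than DAC per the study, and no vehicle control was among the libraries, so exposure, vehicle and drug cannot be told apart. The libraries are technical triplicates of 1 experiment, so the p-values measure the spread within it. RNA levels do not show protein levels, and in bulk RNA fewer cells that express a gene and less RNA per cell cannot be told apart.

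Values are normalised counts: reads divided by the size factor of the library, the same for every gene of it. Libraries held 4.67 to 11.9 M reads (M, mega), with a mean of 10.1 ± 1.61 M (SD, n = 3) without drug and 9.32 ± 1.21 M with ATRA, against 5.87 ± 1.15 M with DAC and 6.42 ± 0.78 M with both. Both groups with DAC were thus the shallower ones. All 10 myeloid markers passed the filter. Their summed level was 70298 to 78541 without drug and 181818 to 222505 with DAC. It was 23141 to 28385 with ATRA and 68573 to 72848 with both. LYZ made up most of the sum without drug and with DAC (means 41628 and 153287) and was 6819 with ATRA. The other markers did not all move with it. FLT3 fell with DAC from 14027 to 8281, and MEIS1 rose with ATRA from 255 to 612. The summed level of 3 monocyte markers (CD14, ITGAM and FCN1) was 21.3 to 33.3 without drug and 144 to 151 with DAC. It was 52.0 to 67.7 with ATRA and 42.0 to 64.3 with both. These 3 did not move together. With DAC the mean of FCN1 rose from 8.66 to 110 and that of ITGAM from 9.58 to 26.8, with CD14 at 10.6 and 9.83. With ATRA ITGAM rose to 57.3, while CD14 fell to 2.23 and FCN1 to 1.77. Of 10 markers of other cell types MS4A1, KRT19 and COL1A2 were among those at 0 in every library. The summed level of those 10 markers was 23.3 to 29.2 without drug and 42.0 to 59.6 with DAC, against 76.2 to 91.5 with ATRA and 67.2 to 80.7 with both, with COL1A1 as the gene that rose most in ATRA, from 8.03 ± 2.93 to 79.0 ± 12.5 (SD, n = 3). The part of these markers in the results below was not tested.

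What each value measures depends on the counting, because the table lists transcripts. Of the 38 rows of these genes that matched GENCODE release 44, 15 had no base that other listed transcripts of the same strand left to them, and 1 of those 15 held reads (TET2-203, whose listed version differs from that release). All 23 rows with bases of their own held reads. A gene's value therefore reflects mainly the bases that set 1 listed transcript apart. The next sequence is shown because the value of row DNMT3A-203, a listed short form of DNMT3A, turns on it. It is written 5′ to 3′ on the strand of the gene, in capitals because no other listed transcript holds these bases.
DNMT3A-203, exon 2 of 19, chr2:25249657-25249724 (hg38, minus strand), the bases particular to the short form among the listed transcripts: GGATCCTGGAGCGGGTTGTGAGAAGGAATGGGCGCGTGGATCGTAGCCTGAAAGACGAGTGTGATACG
Row DNMT1-202 carried 83.6% of all DNMT1 values. The few bases of its own lie in an intron of the other listed transcript, DNMT1-201, so in this total RNA reads of unspliced DNMT1 RNA and of the longer form cannot be told apart.

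The stretches upstream of the start sites of the 3 genes that passed the test in any comparison are shown next, as the nearest regulatory DNA of the genes that moved. They are from RefSeq (GRCh38.p14), end at the first base that GENCODE gives to an exon of the gene and have each CpG, the site of methylation, in capitals.
TET1, chr10:68560087-68560336 (plus strand): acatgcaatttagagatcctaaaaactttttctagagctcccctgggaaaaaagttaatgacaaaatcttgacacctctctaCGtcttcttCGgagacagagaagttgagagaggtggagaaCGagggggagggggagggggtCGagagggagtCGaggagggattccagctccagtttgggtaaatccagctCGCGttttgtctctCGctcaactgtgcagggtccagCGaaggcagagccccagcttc
DNMT3A, chr2:25342591-25342840 (minus strand): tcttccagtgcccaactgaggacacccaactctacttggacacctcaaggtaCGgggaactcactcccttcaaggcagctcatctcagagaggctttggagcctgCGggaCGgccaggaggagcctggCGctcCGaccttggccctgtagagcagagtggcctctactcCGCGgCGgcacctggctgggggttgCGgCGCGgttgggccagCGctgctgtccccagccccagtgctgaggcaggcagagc
UHRF2, chr9:6412949-6413150 (plus strand): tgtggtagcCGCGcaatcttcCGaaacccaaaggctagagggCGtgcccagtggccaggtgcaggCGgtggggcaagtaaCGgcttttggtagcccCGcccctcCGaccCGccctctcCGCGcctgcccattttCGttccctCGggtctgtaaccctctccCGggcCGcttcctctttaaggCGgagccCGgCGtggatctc
The TET1 stretch held 9 CpGs in 250 bases, the long-form DNMT3A stretch held 12 in 250 and the UHRF2 stretch held 18 in 202, with 23 in its whole window of 250. The window of another long-form DNMT3A start, chr2:25341926-25342175, held 33. The median over all 35116 RefSeq windows of 250 bases upstream of a start was 11 CpGs. All 10 genes had at least 1 window, 21 in all. The letters AGGTCA are the core repeat of retinoic acid receptor binding sites. They were found on either strand in 5 of these 21 windows and in 12.1% of all windows. The short-form DNMT3A windows with a match overlap and share 1 site, so the 5 windows are not independent. The genes with a match were DNMT3A (short-form start only), HELLS, TET1 (a downstream start only) and UHRF2 (only in bases of the window past the printed stretch), so none of the 3 printed stretches holds these letters. Neither methylation nor binding at these windows was measured in these libraries.

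The first question was which of these genes changed with each drug against untreated cells. DAC changed 1 of the 9 tested genes, TET1, which was lower (limma on log2(normalised count + 1), Benjamini-Hochberg adjusted p under 0.01). Of all genes tested 7.97% were called in that comparison. ATRA changed 2 of 9, with DNMT3A higher and UHRF2 lower, against 26.0% of all genes. DAC+ATRA changed 3 of 9, with DNMT3A higher and both TET1 and UHRF2 lower, against 28.9% of all genes. The 3 comparisons share the untreated libraries. These counts lie near the share of all genes and are no result about the 10 genes as a set. Separation of 2 groups without overlap was common too. Against untreated it held for 30.4% of all genes tested with DAC, 50.7% with ATRA and 55.8% with DAC+ATRA. For DAC+ATRA it held for 39.6% against DAC and 39.9% against ATRA.

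**Figure D1:**
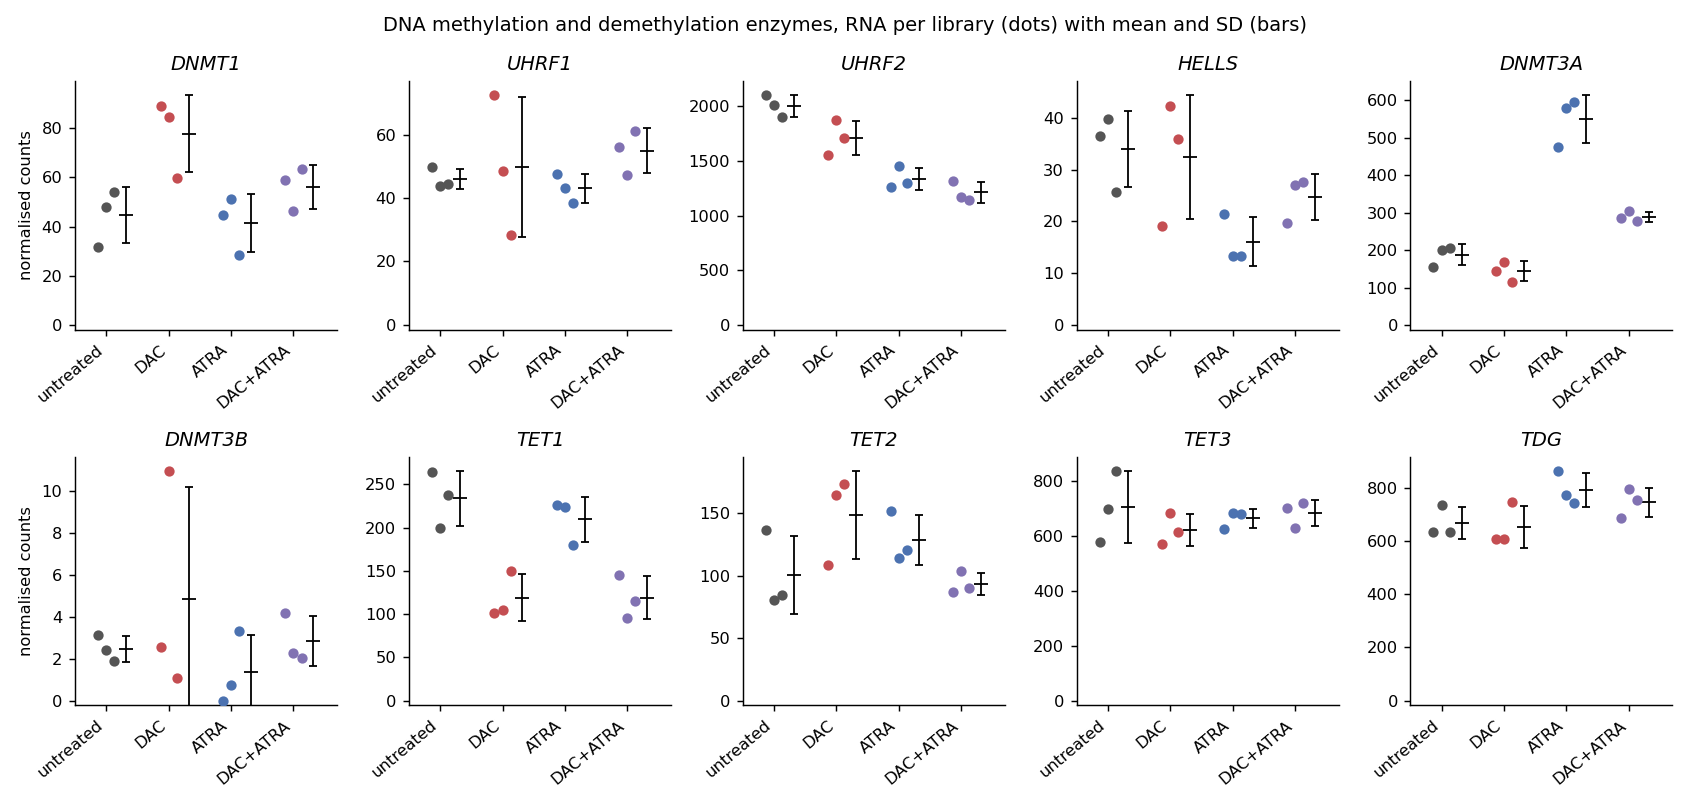
Normalised counts (y axis, linear from 0, a scale per panel) of the 10 genes in the 12 libraries. Dots are libraries, the bar beside them is the mean with the SD (n = 3), and bars of DNMT3B that reach below 0 are cut. DNMT3A stands highest in the 3 ATRA libraries (477 to 596) and TET1 stands lowest in the 6 libraries with DAC (95.7 to 150.2).

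TET1, the founding member of the family that oxidises 5-methylcytosine, was lower wherever DAC was present. It is the one gene of the set with a single listed transcript, so all of its 9612 exonic bases on chr10:68560337-68694487 (plus strand, hg38) could be counted. Its normalised counts were 264, 199.7 and 238 in the untreated libraries and 102, 105 and 150.2 in the DAC libraries. They were 226, 223 and 179.7 in ATRA and 146, 95.7 and 115 in DAC+ATRA. The libraries with DAC lay below all libraries without it, with no overlap.
The log2 fold change of TET1 was -0.98 ± 0.19 (SE, n = 3 per group) with DAC (95% interval -1.38 to -0.58, limma adjusted p = 0.00145), a level 1.97-fold lower. With DAC+ATRA against untreated it was again -0.98 ± 0.19 (limma adjusted p = 3.96e-04). Against ATRA alone, DAC+ATRA was lower by a log2 fold change of -0.83 ± 0.19 (limma adjusted p = 0.00409). ATRA alone gave -0.15 ± 0.19 (95% interval -0.55 to 0.24, limma adjusted p = 0.573). For ATRA added to DAC the 95% interval was -0.40 to 0.40 (limma adjusted p = 0.999). A test of whether the DAC effect differed with ATRA gave a difference of 0.16 ± 0.27 in log2 fold change (limma adjusted p = 0.869). Some of these calls rest on single libraries. Without untreated replicate 1 the adjusted p for DAC was 0.0124, and with only the untreated and DAC libraries in the fit it was 0.0184. For DAC+ATRA against ATRA it was 0.0169 and 0.0250 when ATRA replicates 1 and 2 were left out in turn, and 0.0329 and 0.0180 when replicates 2 and 3 of DAC+ATRA were. The direction was the same in each.

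DNMT3A, which sets new methyl marks, rose with ATRA, and rose less with both drugs. Its normalised counts were 156, 201 and 206 in untreated and 477, 579 and 596 in ATRA. They were 145, 169 and 115 in DAC and 286, 304 and 279 in DAC+ATRA. All ATRA libraries lay above all DAC+ATRA libraries, which in turn lay above all libraries without ATRA, while untreated and DAC overlapped.
The log2 fold change of DNMT3A with ATRA was 1.55 ± 0.16 (SE, n = 3 per group, limma adjusted p = 2.27e-07), a level 2.93-fold higher (95% interval 2.33 to 3.69). With DAC+ATRA against untreated it was 0.63 ± 0.16 (limma adjusted p = 0.00358), or 1.55-fold. ATRA added to DAC gave 1.03 ± 0.16 (limma adjusted p = 5.78e-05), and DAC added to ATRA gave -0.92 ± 0.16 (limma adjusted p = 3.56e-04). DAC alone gave -0.39 ± 0.16, which did not pass (limma adjusted p = 0.104). The interaction, the DAC effect with ATRA minus that without, was -0.53 ± 0.22 and did not pass either (limma unadjusted p = 0.0306, adjusted p = 0.265). A weaker effect of ATRA in the presence of DAC is thus not shown for DNMT3A. The call for DAC+ATRA against untreated was lost without untreated replicate 1 (log2 fold change 0.50, limma adjusted p = 0.0295) and without DAC+ATRA replicate 1, 2 or 3 (adjusted p = 0.0119, 0.0187 and 0.0107).

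The DNMT3A reads came mainly from 1 row of the long form. DNMT3A-201, which starts at chr2:25342590, carried 86.5% of the values. Its mean was 153 ± 23.9 without drug and 480.4 ± 42.9 with ATRA, against 121 ± 25.5 with DAC and 258 ± 9.91 with both (SD, n = 3). In a fit on transcript rows its log2 fold change with ATRA was 1.65 ± 0.17 (limma adjusted p = 1.71e-07, where 19.5% of all tested rows were called). DNMT3A-206, a form with an early end in an intron of the long forms, went from 19.5 ± 3.59 to 37.5 ± 8.85 with ATRA (SD, n = 3; limma adjusted p = 0.0442). Its 989 own bases lie within DNMT3A-201 but outside the exons of that form. Reads of DNMT3A-206 and of unspliced long-form RNA thus cannot be told apart. The short form DNMT3A-203, read through the 68 bases printed above, held 37 reads over the 3 untreated libraries, 4 over the DAC libraries, 46 over the ATRA libraries and 13 over the DAC+ATRA libraries. Its log2 fold change with DAC was -1.94 ± 0.63 and did not pass (limma adjusted p = 0.0514). The 68 bases also lie within the span of DNMT3A-201 but outside its exons. The reads of row DNMT3A-203 may thus stem from the short form or from unspliced long-form RNA, which cannot be told apart. How many bases DNMT3A-201 could be counted on was not determined, since the listed version of DNMT3A-202 differs from that in GENCODE release 44.

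**Figure D2:**
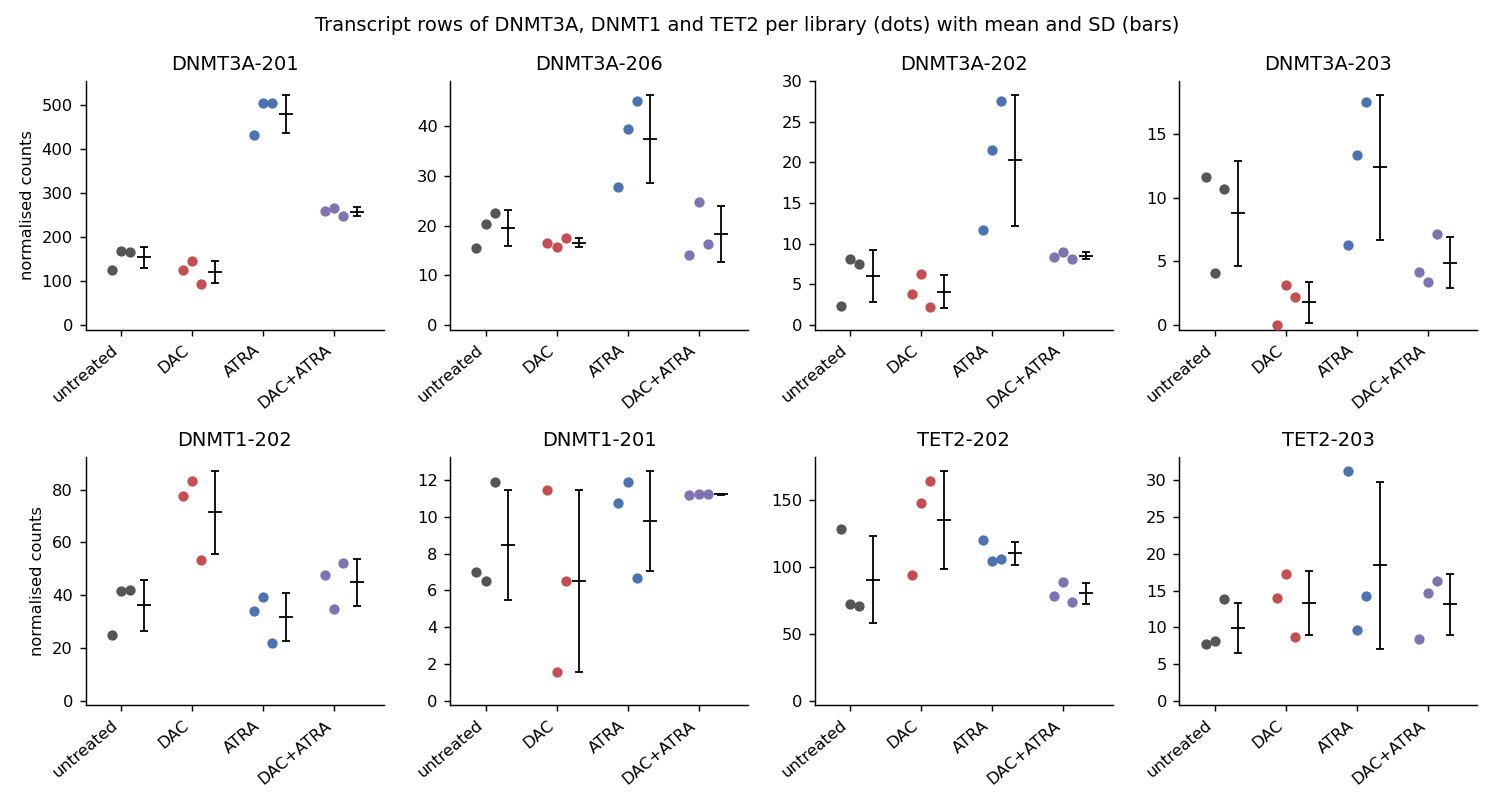
Normalised counts (y axis, linear from 0, a scale per panel) of single transcript rows of DNMT3A, DNMT1 and TET2. Dots are libraries and the bar beside them is the mean with the SD (n = 3). DNMT3A-201 holds most DNMT3A values and is highest in ATRA (480.4 ± 42.9), and DNMT1-202 is highest in DAC (71.4 ± 15.8).

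DNMT3B, the other enzyme for new marks, had too few reads to test, and only 2 of its 6 listed rows had bases of their own, 99 in DNMT3B-202 and 294 in DNMT3B-201, so the reads do not show how much DNMT3B RNA was present. It had 4, 3 and 3 reads without drug and 2, 7 and 1 with DAC. It had 0, 1 and 4 reads with ATRA and 3, 2 and 2 with both. At this depth no difference between the groups was detectable, and no fold change is given.

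UHRF2, a relative of UHRF1 that also binds modified cytosines in DNA, fell with ATRA. It had the most reads of the 10 genes, and 99.6% of its values came from row UHRF2-201 on chr9:6413199-6507054 (plus strand, hg38), where 3119 of 3576 exonic bases could be counted. Its normalised counts were 2103, 2011 and 1903 in untreated and 1262, 1453 and 1296 in ATRA. They were 1558, 1871 and 1712 in DAC and 1321, 1173 and 1147 in DAC+ATRA. Every library with ATRA lay below every library without it, and the DAC libraries lay just below the untreated ones. DAC and untreated did not overlap in 30.4% of all genes tested.
The log2 fold change of UHRF2 was -0.59 ± 0.10 (SE, n = 3 per group) with ATRA (95% interval -0.80 to -0.37, limma adjusted p = 1.76e-04), so that its level fell by 33.4%. With DAC+ATRA it was -0.73 ± 0.10 (limma adjusted p = 1.68e-05), or 1.65-fold lower. ATRA added to DAC gave -0.50 ± 0.10 (limma adjusted p = 0.00123). Without DAC+ATRA replicate 3 this last call was lost (log2 fold change -0.46, limma adjusted p = 0.0110). DAC alone gave -0.23 ± 0.10 (95% interval -0.45 to -0.01) and did not pass (limma adjusted p = 0.152), and DAC added to ATRA gave -0.14 ± 0.10 (limma adjusted p = 0.382). The interaction was 0.09 ± 0.15 (limma adjusted p = 0.858).

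UHRF1, the reader that brings DNMT1 to replicated DNA, had low values with no call in any comparison. The UHRF1 values were 49.8, 43.8 and 44.5 in untreated and 72.5, 48.6 and 28.3 in DAC. They were 47.5, 43.2 and 38.5 in ATRA and 56.0, 47.3 and 61.3 in DAC+ATRA. The 3 DAC libraries spread over more than the range of all other groups. The 95% interval of its log2 fold change was -0.57 to 0.60 with DAC, -0.68 to 0.48 with ATRA and -0.34 to 0.82 with DAC+ATRA.

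DNMT1, the maintenance enzyme and the main protein target of DAC, had its highest RNA values in the DAC libraries, without passing the test. Its normalised counts were 31.9, 47.9 and 53.9 in untreated and 89.0, 84.7 and 59.9 in DAC. They were 44.8, 51.3 and 28.4 in ATRA and 58.8, 46.2 and 63.3 in DAC+ATRA. The DAC libraries lay above the untreated ones without overlap, whereas the other groups overlapped with untreated. DAC and untreated did not overlap in 30.4% of all genes tested.
The log2 fold change of DNMT1 with DAC was 0.80 ± 0.27 (SE, n = 3 per group; 95% interval 0.24 to 1.37), with a limma adjusted p of 0.0507, an edgeR adjusted p of 0.0448 and a DESeq2 adjusted p of 0.0320. With ATRA it was -0.11 ± 0.27 (limma adjusted p = 0.792). Both drugs together gave 0.35 ± 0.27 (limma adjusted p = 0.330). The higher values in DAC lay in row DNMT1-202, which had a mean of 36.1 ± 9.72 in untreated and 71.4 ± 15.8 in DAC (SD, n = 3; limma adjusted p = 0.0362 on transcript rows). Row DNMT1-201, with 182 bases of its own, had 8.47 ± 3.00 and 6.52 ± 4.94 (SD, n = 3; limma adjusted p = 0.578). A test of the difference between the rows was not run. Both rows together held only 145 to 186 reads per group. Just 48 of 5274 exonic bases of DNMT1-202 and 182 of 5408 of DNMT1-201 could be counted. The DNMT1 value thus stands for a small share of DNMT1 RNA.

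HELLS, the remodeller that gives the methylation machinery access to packed chromatin, was lowest with ATRA. The HELLS values were 36.6, 39.8 and 25.7 in untreated and 21.5, 13.4 and 13.4 in ATRA. They were 19.1, 42.3 and 35.9 in DAC and 19.6, 27.0 and 27.6 in DAC+ATRA. The ATRA libraries lay below the untreated ones, but on only 58 reads in the group against 137. ATRA and untreated did not overlap in 50.7% of all genes tested. With ATRA the log2 fold change was -1.05 ± 0.33 (SE, n = 3 per group; 95% interval -1.75 to -0.34) and did not pass (limma adjusted p = 0.0192). With DAC it was -0.12 ± 0.33 and with DAC+ATRA -0.44 ± 0.33 (limma adjusted p = 0.866 and 0.320).

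The RNAs of DNMT1, UHRF1 and HELLS are known to be made mainly in dividing cells, so lists of S phase and mitosis genes are given beside them. Of 21 S phase genes, 15 fell and 1 rose with ATRA, with a list median of -1.02 in log2 fold change against -0.04 over all genes tested, of which 26.0% were called. The largest changes were CDT1, a licensing factor of replication, at -1.82 ± 0.15 and CCNE2, a cyclin of the G1 to S step, at -1.56 ± 0.30, and MCM7, a subunit of the replicative helicase, rose by 1.15 ± 0.26 (SE; limma adjusted p = 1.15e-08, 3.57e-04 and 0.00150). With DAC none of the 21 passed the limma test (edgeR called 1, median 0.39), and with DAC+ATRA 1 fell, CDT1 at -0.82 ± 0.15 (limma adjusted p = 2.18e-04; median -0.21). Of 10 mitosis genes, 9 fell with ATRA (median -0.97), 7 fell with DAC+ATRA (median -0.76, where 28.9% of all genes were called) and none passed with DAC (median 0.24, also none with edgeR). Among them were MKI67, a marker of cycling cells, at -1.33 ± 0.18 and the checkpoint kinase BUB1 at -1.72 ± 0.38 with ATRA, and the kinase AURKA at -1.55 ± 0.25 and MKI67 at -1.16 ± 0.18 with DAC+ATRA (SE; limma adjusted p = 9.55e-06, 0.00139, 6.51e-05 and 4.64e-05). Some of the named genes had few counts. Untreated and ATRA means were 38.0 ± 7.30 and 85.7 ± 15.8 for MCM7 (SD, n = 3). They were 38.5 ± 7.33 and 12.9 ± 5.24 for CCNE2, and 26.1 ± 11.2 and 7.16 ± 2.85 for BUB1. The part of these lists in the values of HELLS, UHRF1, UHRF2 and DNMT1 was not tested.

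**Figure D3:**
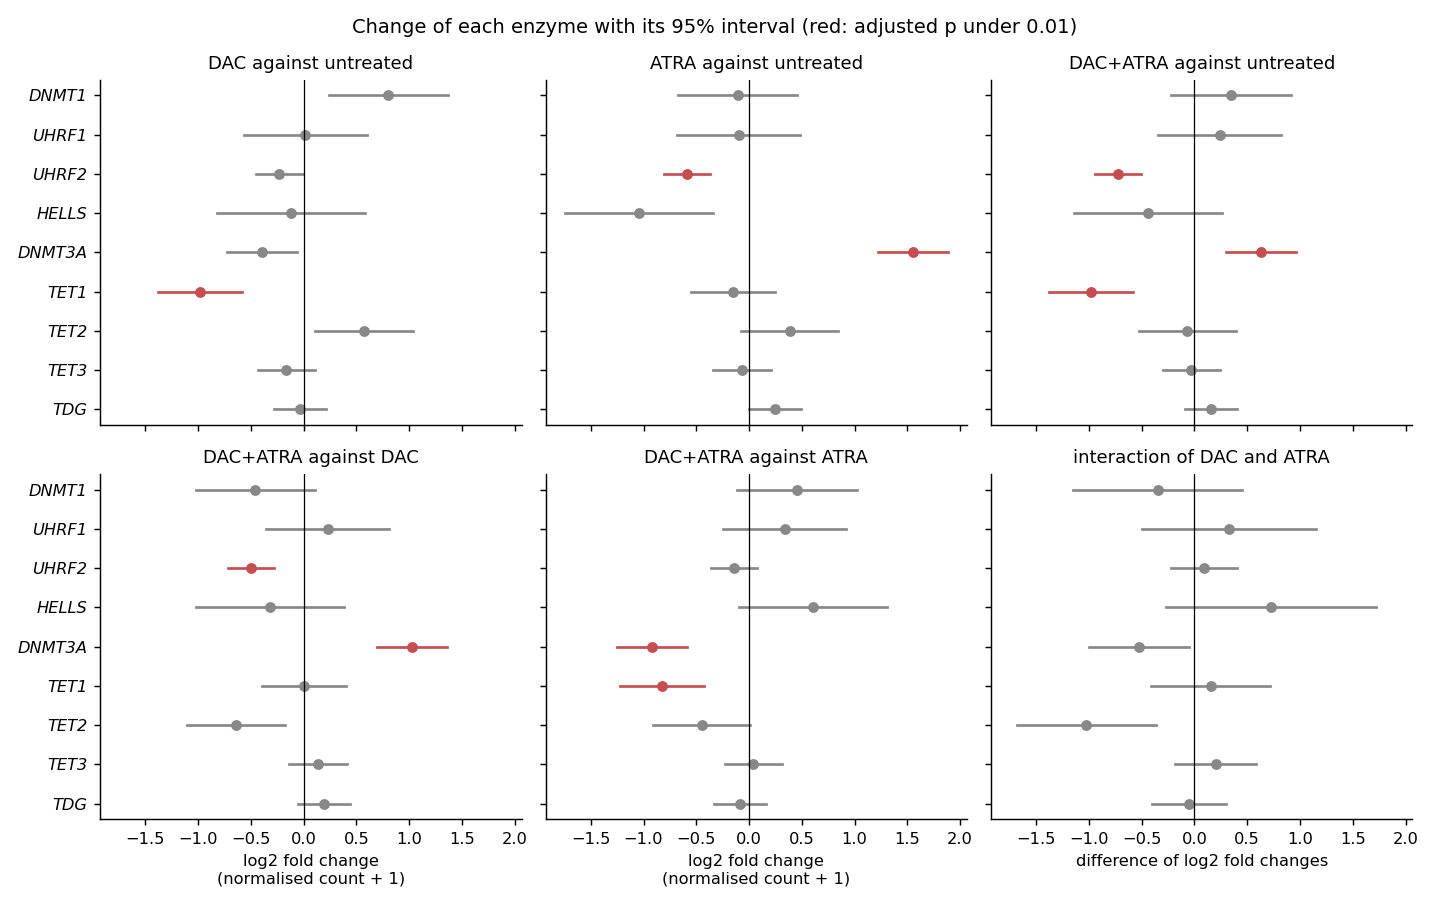
Log2 fold change (x axis, log2 of normalised count + 1) of the 9 tested genes in the 5 comparisons, and the difference of log2 fold changes for the interaction. Dots are estimates, lines are 95% intervals, and red marks an adjusted p under 0.01. TET1 is red and left of 0 in all 3 comparisons of a group with DAC against one without, and DNMT3A is red in 4 comparisons, right of 0 in 3 of them and left of 0 for DAC+ATRA against ATRA.

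TET2 and TET3, the other oxidising enzymes, were not called in any comparison. The normalised counts of TET2 were 136, 80.4 and 84.7 in untreated and 108, 165 and 173 in DAC. They were 151, 114 and 120.4 in ATRA and 86.8, 104 and 89.9 in DAC+ATRA. Both the DAC and the ATRA libraries lay above the DAC+ATRA libraries without overlap, and untreated overlapped with every other group. Over all genes tested, 39.6% and 39.9% did not overlap in these comparisons. The log2 fold change of TET2 was 0.57 ± 0.22 (SE, n = 3 per group) with DAC (limma adjusted p = 0.0887), 0.38 ± 0.22 with ATRA (limma adjusted p = 0.190) and -0.07 ± 0.22 with both (limma adjusted p = 0.842).
TET2 had the largest interaction of the 9 genes in size, -1.02 ± 0.31 (limma unadjusted p = 0.00405, adjusted p = 0.0843, edgeR adjusted p = 0.0689, DESeq2 adjusted p = 0.0346), which did not pass. ATRA added to DAC gave -0.64 ± 0.22 (limma adjusted p = 0.0360), which passed at the threshold of 0.01 without DAC replicate 1 (log2 fold change -0.85, adjusted p = 0.00741). Row TET2-202 carried 88.4% of the values. It is a short form of 3 exons on chr4:105145875-105242771 (plus strand, hg38) that ends before the later exons of the long forms. Of its 4208 own bases, 212 lie in a first exon upstream of the long forms, while the others, 3910 of them in its 3′ UTR, lie mainly in introns of the long forms with 11 exons. Over those intronic bases, reads of the short form and of unspliced long-form RNA cannot be told apart, and the files do not show where in the row the reads lie. The long form TET2-203 had a mean of 9.90 ± 3.38 without drug and 18.4 ± 11.4 with ATRA, against 13.3 ± 4.31 with DAC and 13.1 ± 4.18 with both (SD, n = 3).

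TET3 had the narrowest range of log2 fold changes of the 9 genes, -0.16 to 0.14 over the 5 comparisons of groups. For TET3 the normalised counts were 577, 697 and 839 in untreated and 569.9, 684 and 615 in DAC. They were 626, 686 and 682 in ATRA and 701, 630.4 and 719.9 in DAC+ATRA. All groups overlapped. The 95% interval of its log2 fold change was -0.44 to 0.11 with DAC, -0.34 to 0.20 with ATRA and -0.30 to 0.24 with DAC+ATRA.

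TDG, the glycosylase that removes oxidised cytosines, was not called in any comparison. The TDG values were 635, 737 and 634 in untreated and 609, 608 and 746 in DAC. They were 865, 772 and 743 in ATRA and 687, 796 and 756 in DAC+ATRA. The ATRA libraries lay just above the untreated ones, and these groups did not overlap in 50.7% of all genes tested. With ATRA the log2 fold change of TDG was 0.25 ± 0.12 (SE, n = 3 per group; limma adjusted p = 0.112), that with DAC was -0.03 ± 0.12 (limma adjusted p = 0.890) and that with both was 0.16 ± 0.12 (limma adjusted p = 0.303). Row TDG-202 carried 97.0% of its values and was read mainly through 1680 bases at its end.

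Each drug was then compared on top of the other. ATRA added to DAC changed 2 of the 9 genes, DNMT3A (higher) and UHRF2 (lower), where 18.8% of all genes were called. DAC added to ATRA also changed 2, DNMT3A and TET1 (both lower), where 11.9% of all genes were called. No gene of the 9 had an interaction past the threshold with limma, edgeR or DESeq2, where limma called 1.60% of all genes, and 2 (DNMT3A and TET2) had an unadjusted limma p under 0.05. In size of change, TET1 moved with DAC and not measurably with ATRA, UHRF2 moved with ATRA, and DNMT3A moved in opposite directions in the comparisons that added ATRA to DAC and DAC to ATRA. Those 2 comparisons share the DAC+ATRA libraries.

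The genes whose values over the 12 libraries ran closest to those of the 3 called genes were found by the root mean square difference of centred log2 values. For DNMT3A these were TRPM4, an ion channel (0.16), and IL10RA, a cytokine receptor (0.17), where the SD of DNMT3A itself was 0.75. For TET1 they were SLC11A2, an iron transporter (0.18), and DPYSL2 (0.18), with an SD of 0.50 for TET1. For UHRF2 they were RPL5, a ribosomal protein (0.11), and PSMA1, a proteasome subunit (0.11), with an SD of 0.30. All 10641 other tested genes were compared, and the libraries share their grouping, so closeness here describes the pattern only.

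Around these enzymes, 4 lists of other genes of the pathway were read in the same fit. Of 10 tested partners and regulators of the methyltransferases, 1 rose with DAC, 2 fell with ATRA and 3 fell with DAC+ATRA, with list medians of 0.12, -0.42 and 0.17 in log2 fold change. Over all genes 7.97%, 26.0% and 28.9% were called in these comparisons, so the counts of this list lie near the background. PCNA, the replication clamp that holds DNMT1 at the fork, rose with DAC by 0.85 ± 0.15 and fell with ATRA, by -0.57 ± 0.15 (SE; limma adjusted p = 4.61e-04 and 0.00436). PCLAF, a PCNA-bound factor, was at -1.64 ± 0.17 with ATRA and -0.91 ± 0.17 with DAC+ATRA (limma adjusted p = 1.91e-07 and 2.12e-04). CDCA7, the partner of HELLS, was at -1.72 ± 0.41 with DAC+ATRA (limma adjusted p = 0.00259) on a mean of 29.0 ± 2.47 normalised counts in untreated and 9.71 ± 7.08 in DAC+ATRA (SD, n = 3).

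Of 15 tested genes of active demethylation and base excision, 1 rose and 1 fell with DAC, 2 rose and 2 fell with ATRA, and 1 rose and 3 fell with DAC+ATRA, with list medians of 0.06, -0.29 and -0.10. These counts too lie near the 7.97%, 26.0% and 28.9% of all genes. CXXC5, a CpG-binding regulator of TET2, fell most, to -2.14 ± 0.18 with ATRA and -1.49 ± 0.18 with DAC+ATRA (SE; limma adjusted p = 1.49e-08 and 2.14e-06). POLB, the repair polymerase that fills the gap after base removal, rose with ATRA by 0.92 ± 0.12 (limma adjusted p = 7.88e-06). GADD45B, a stress gene linked to demethylation, fell with DAC, by -0.79 ± 0.14, and rose with ATRA by 0.51 ± 0.14 (limma adjusted p = 5.14e-04 and 0.00679). The ligase LIG3 rose with DAC by 0.48 ± 0.10 and with DAC+ATRA by 0.42 ± 0.10, while its partner XRCC1 fell, to -1.03 ± 0.27 with ATRA and -1.12 ± 0.27 with DAC+ATRA (limma adjusted p = 0.00313, 0.00306, 0.00469 and 0.00237).

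Of 7 tested methyl-CpG readers, none passed the limma test in any of the 6 comparisons, and edgeR called 1 as higher with DAC+ATRA. Of 10 tested genes on the methyl donor supply list, none passed with DAC with either limma or edgeR. With ATRA 1 fell, and with DAC+ATRA 1 rose and 2 fell. These counts are no more than the shares of all genes (7.97%, 26.0% and 28.9%) or near them. Whether each listed gene acts in that supply in these cells was not tested. SHMT2, which feeds the folate cycle in mitochondria, fell to -1.55 ± 0.27 with ATRA and -1.05 ± 0.27 with DAC+ATRA (SE; limma adjusted p = 1.18e-04 and 0.00385). MAT2A, which makes the methyl donor itself, rose with DAC+ATRA by 0.37 ± 0.10 (limma adjusted p = 0.00494). AHCYL1 was at -1.48 ± 0.43 with DAC+ATRA (limma adjusted p = 0.00946, edgeR adjusted p = 0.0110) on 18.8 ± 7.11 normalised counts in untreated and 5.95 ± 1.62 in DAC+ATRA (SD, n = 3).

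**Figure D4:**
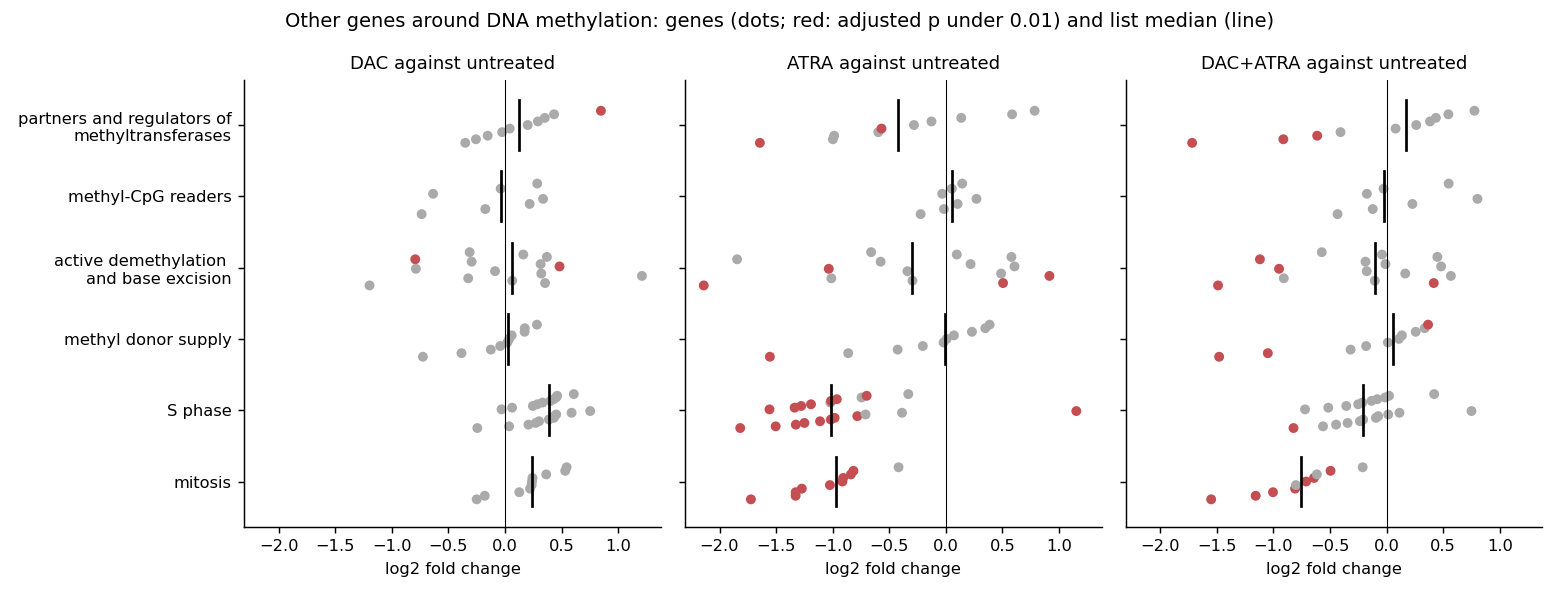
Log2 fold change (x axis, log2 of normalised count + 1) of the tested genes of 6 lists against untreated. Dots are genes, spread vertically only for legibility, red marks an adjusted p under 0.01 and the vertical line is the list median. The S phase and mitosis lists sit left of 0 with ATRA (medians -1.02 and -0.97) and right of it with DAC (0.39 and 0.24).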

How the data were processed

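Total RNA of MOLM-13 was depleted of ribosomal RNA and sequenced strand-specifically. Per the submitters' processing notes, the authors used FastQC, STAR, HTSeq and DESeq2 with hg38; the annotation release is not given in the sources used here. The deposited table holds a normalised signal per Ensembl transcript: the authors scaled the counts with 1 size factor for each library. All values (100%) were whole multiples of a library's smallest step, so reads could be recovered, 4.67 to 11.9 M per library, and the reads of a gene set the precision of its value. The table's CTRL columns were read as untreated, the only group left for them by the labels.

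Rows were summed per symbol (100502 rows, 46639 symbols). Biotypes and coordinates came from GENCODE release 44 on hg38, which held 88.9% of the rows, and upstream windows from RefSeq. Protein-coding genes that reached 10 normalised counts in 3 or more libraries entered limma 3.58.1 in R 4.3.3 (lmFit and trended eBayes). The scale was log2(normalised count + 1), which understates changes of low genes. All 12 libraries entered 1 fit without covariates, and p-values were adjusted by Benjamini-Hochberg over all 10642 genes, with a threshold of 0.01. Intervals are 95%. The scripts were tested on simulated data. Levels are not compared between genes, since the bases counted differ.

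Alternatives were edgeR 4.0.16 and DESeq2 1.42.0 on recovered reads, TMM and total-count scaling, pseudocounts of 0.5 and 5, no filter, a filter of 50, all symbols, only the compared groups, a replicate block, a threshold of 0.05, a required fold of 2, the top transcript row, and leaving out each library. Named were all 10 genes, per pathway list and comparison with untreated at most 2 called genes higher and 2 lower by size of change, and the 2 genes nearest in pattern to each called gene. The genes and lists were chosen with earlier results of these data known. A sequence and a few genes are not reported here.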

Additional observations from a re-analysis of the deposited data

How the results depend on the processing

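No result changed direction past the threshold in any of 26 alternatives. Of the 44 results not called, 13 had another sign in an alternative, without a call. Of the 10 gene results called by limma, 2 kept their call in all alternatives, those of DNMT3A with ATRA and with DAC+ATRA against DAC. The number of genes called moved by over 1.5 times as follows. With a change of over 2-fold also required, it was 0 for DAC, 1 for ATRA, 0 for DAC+ATRA, 1 for DAC+ATRA against DAC and 0 for DAC+ATRA against ATRA, since TET1, UHRF2 and part of the DNMT3A changes were smaller. When a fit held just the 2 groups compared it was 0 for DAC. Leaving out 1 library gave 0 to 1 genes for DAC, 2 to 3 for ATRA, 2 to 3 for DAC+ATRA, 1 to 3 for DAC+ATRA against DAC, 1 to 2 for DAC+ATRA against ATRA and 0 to 0 for the interaction. HELLS with ATRA passed at a threshold of 0.05 and without DAC replicate 1 (limma adjusted p = 0.00939), and TET2 in DAC+ATRA against DAC passed at 0.05 and also without DAC replicate 1 (0.00741). DNMT3B could be fitted only without a filter and was not called. Over all 6 pathway lists and 6 comparisons limma made 91 calls and edgeR 95.

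Over all genes, the 848 calls of DAC were 371 with only the compared groups, 361 with over 2-fold, 1638 at a threshold of 0.05, 1385 without DAC replicate 3, 540 without untreated replicate 1 and 509 without untreated replicate 2, and the 170 interaction calls were 338 with DESeq2, 386 at 0.05, 262 without DAC replicate 3, 112 without DAC+ATRA replicate 2 and 106 without untreated replicate 2. With over 2-fold required, 2772 calls became 1561 for ATRA, 3077 became 1547 for DAC+ATRA, 1998 became 1085 against DAC and 1270 became 536 against ATRA. At 0.05 the last pair were 3055 and 2244, and 1270 became 819 without ATRA replicate 2 or DAC+ATRA replicate 2. The same replicate numbers do not mark a shared batch in the labels. The residuals of same-numbered libraries correlated at -0.26 to 0.11 over 18 pairs, and 1 of 12 libraries correlated best with its own number. With the replicate block, the number of the 9 genes called stayed at 1, 2, 3, 2, 2 and 0 in the 6 comparisons. Low read numbers limit DNMT1, DNMT3B, UHRF1 and HELLS most, with at most 186 reads of DNMT1 and 137 of HELLS in a group. These numbers depend on depth and on the bases that could be counted, such as 48 of 5274 in DNMT1-202.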
